A study of Mus musculus with 10 samples.

Results

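MHC antigen presentation genes were described in mouse oviduct organoids through 10 named genes, of 54152 lines in the expression table. Of these, 7 serve the class I pathway (H2-K1, H2-D1, B2m, Tap1, Tap2, Psmb8 and Psmb9) and 3 serve the class II pathway (Cd74, H2-Aa and H2-Ab1). All 10 were present in the table under the same symbols. Organoids are cultures of dissociated oviduct epithelial cells that grow in Matrigel, here from the isthmus, and 10 RNA libraries were sequenced in 6 groups. PgrKO organoids came from PgrCre/+ Cdc42 f/f mice, in which Cre from the progesterone receptor gene acts on the floxed allele of the small GTPase gene Cdc42 in the animal. AdKO organoids started as Cdc42 f/f cultures and received Cre in the dish from the adenovirus Ad5-CMV-Cre (Ad-Cre). F/F organoids carried the floxed allele without Cre, so that the floxed allele was shared by all 3 genotypes. Diff organoids had received 10 nM estrogen (E2) and 1 μM of the Notch inhibitor DBZ over 6 days to induce multiciliated cells, and Con organoids had not. PgrKO_Diff, PgrKO_Con, F/F_Diff and F/F_Con had 2 libraries each, while AdKO_Diff and AdKO_Con had 1 each. No library with a virus lacking Cre was analysed here, so infection and loss of Cdc42 cannot be told apart in AdKO. The mouse strain, and with it the MHC haplotype, was not given in the sources used here, nor was it stated whether replicate libraries came from separate mice, so p-values measure the spread between these libraries.

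Class I molecules display peptides from the cell's own proteins to cytotoxic T cells, and nearly every nucleated cell carries them. The peptides are cut by the proteasome, in which Psmb8 and Psmb9 replace the constitutive catalytic subunits Psmb5 and Psmb6. They are carried into the endoplasmic reticulum by the transporter of Tap1 and Tap2, and are bound there by a heavy chain (H2-K1 or H2-D1) paired with β2-microglobulin (B2m). Class II molecules, made of an α chain (H2-Aa) and a β chain (H2-Ab1) and escorted by the invariant chain (Cd74), display peptides taken up from outside. They are typical of macrophages, dendritic cells and B cells, and epithelial cells can make them when interferon-γ induces the transactivator Ciita. The class I counterpart of Ciita is Nlrc5, and promoters of both classes carry an S-X-Y module that holds a cyclic AMP response element (CRE) and a Y box at a fixed distance.

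Promoter sequences were given by RefSeq (GRCm38.p6) for 7 of the 10 genes, all but Tap2, Cd74 and H2-Ab1. The stretches upstream of the start site are printed for the 3 most abundant class I genes and the class II gene H2-Aa, because the same pair of elements stood in all 4 while their transcript levels lay far apart. Capitals mark the CRE core (TGACG) and the reversed core of the Y box (ATTGG). H2-K1 is shown at chr17:34000348-34000462 (minus strand), H2-D1 at chr17:35262993-35263022 (plus strand, the paired elements only), B2m at chr2:122147544-122147643 (plus strand) and H2-Aa at chr17:34287863-34287958 (minus strand).
H2-K1: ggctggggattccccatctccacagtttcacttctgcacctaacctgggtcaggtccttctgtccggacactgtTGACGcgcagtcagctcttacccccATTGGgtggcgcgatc
H2-D1: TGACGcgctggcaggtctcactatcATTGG
B2m: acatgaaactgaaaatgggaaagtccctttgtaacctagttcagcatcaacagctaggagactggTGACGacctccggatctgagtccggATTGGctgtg
H2-Aa: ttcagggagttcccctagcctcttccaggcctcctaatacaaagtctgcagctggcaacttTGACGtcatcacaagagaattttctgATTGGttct
The 2 cores were separated by 20 bases in H2-K1, H2-D1 and B2m and by 21 in H2-Aa. TGACG followed by 20 or 21 bases and ATTGG, read on either strand, was found in 0.152% of 32817 upstream regions of 250 bases. The gap allowed was that of the 4 printed promoters. They match this pattern by construction, so the share is no test of them. The CRE core began 41, 101 and 78 bases before the start site in H2-K1, H2-D1 and B2m, and 74 bases before it in H2-Aa. B2m also held an interferon response core, 2 copies of GAAA separated by 2 bases, which starts 139 bases upstream and occurs in 2.97% of the regions searched on both strands. NF-κB sites occurred upstream of H2-K1, H2-D1, B2m and H2-Aa and in 7.25% of all regions. The promoters of Tap1, Psmb8 and Psmb9 held no NF-κB site. They also lacked the pair of cores at 20 or 21 bases, and Psmb8 held neither core. These matches describe letters and not occupied sites.

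Of the 10 members, 8 lie in the MHC on chromosome 17 of mm10 (GENCODE M21). H2-K1 spans 33996017 to 34000347 (minus strand), H2-D1 35262730 to 35267499 (plus), Tap1 34187553 to 34197225 (plus), Tap2 34203527 to 34216321 (plus), Psmb8 34197721 to 34201454 (plus) and Psmb9 34181987 to 34187764 (minus). H2-Aa spans 34282744 to 34287823 (minus) and H2-Ab1 34257689 to 34269419 (plus) on the same chromosome. B2m lies on chromosome 2 from 122147686 to 122153083 (plus) and Cd74 on chromosome 18 from 60803848 to 60812652 (plus). Exact stretches of 100 bases shared with other genes on the same strand made up 3.59% of the H2-D1 transcripts and 0.957% of the H2-K1 transcripts, so the counts of these paralogs could in part be exchanged. Tap1 and Psmb9 overlap head to head over 212 bases. B2m lies whole within the antisense gene Patl2, but its transcript shared no stretch of 100 bases with another gene on either strand. On the opposite strand, shared stretches made up 8.0% of the Psmb8, 4.99% of the Tap2, 2.73% of the Psmb9 and 1.93% of the Tap1 transcripts. Whether the counting used strand was not stated. Reads from the shared stretches of Psmb8, Tap2, Psmb9 and Tap1 thus cannot be told apart from those of the opposite strand.

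The libraries held 11745729 to 17331800 reads, recovered from FPKM, which are fragment counts set against exon length and effective library size. Epcam, which marks epithelial cells, was at 204 to 380 FPKM in all 10 libraries. Cdc42 was at 81.6 and 87.9 FPKM in the AdKO libraries, 104 to 134 FPKM in PgrKO and 118 to 133 FPKM in F/F, with a log2 fold change of −0.56 (adjusted p = 0.0466 from limma) in AdKO and −0.15 (adjusted p = 0.332 from limma) in PgrKO against F/F. The AdKO value for Cdc42 passed in 2 of the 8 fits without 1 library, with adjusted p up to 0.106. A single value for the gene cannot tell transcripts with the floxed exon and those without it apart. PgrKO libraries carried transcripts of other cell types, with those of leukocytes and macrophages foremost in the replicates numbered 2. The summed level of 16 leukocyte and macrophage markers was 349 to 1215 FPKM in PgrKO_Con and 380 to 1669 FPKM in PgrKO_Diff, against 73.2 to 210.0 FPKM in the 4 F/F libraries. Cd14, at 52.4 to 172 FPKM, made up most of the F/F sum and overlapped between the genotypes, as did Cd68, Csf1r, Aif1 and Itgax. C1qa was at 3.85 to 108 FPKM in PgrKO and 0 to 0.13 FPKM in F/F. The sum of 10 fibroblast markers was 235 to 787 FPKM in PgrKO, against 108 to 309 FPKM in F/F. Fn1 and Vim made up most of the F/F sum and overlapped between the genotypes. Dcn was at 11.2 to 97.9 FPKM in PgrKO and 0 to 0.42 FPKM in F/F. The sum of 8 endothelial markers was 30.75 to 38.15 FPKM in PgrKO_Con and 10.66 to 22.93 FPKM in PgrKO_Diff. In F/F it was 1.15 to 2.64 FPKM. The endothelial gene Cdh5 was at 26.1 FPKM in PgrKO_Con replicate 1 and 18.9 in replicate 2. In bulk RNA, fewer cells of a type and less RNA per cell cannot be told apart.

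The class I heavy chains and B2m were among the abundant transcripts of every library, the genes of peptide generation and transport were expressed at low levels, and the class II chains were close to 0. B2m had 397 and 420 FPKM in PgrKO_Diff, 532 and 679 in PgrKO_Con, 218 in AdKO_Diff, 312 in AdKO_Con, 140.0 and 129 in F/F_Diff and 463 and 463 in F/F_Con. H2-K1 had 219 and 198 FPKM in PgrKO_Diff, 225 and 243 in PgrKO_Con, 120 in AdKO_Diff, 156 in AdKO_Con, 102 and 76.5 in F/F_Diff and 206 and 241 in F/F_Con. H2-D1 had 304 and 243 FPKM in PgrKO_Diff, 310 and 287 in PgrKO_Con, 198 in AdKO_Diff, 206 in AdKO_Con, 104 and 82.4 in F/F_Diff and 185 and 217 in F/F_Con. For these 3 genes the F/F_Diff libraries were the lowest of the 10. H2-D1 alone of the members was higher in each of the 4 PgrKO libraries than in any of the 4 F/F libraries, a separation seen for 13% of 15817 genes.

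The transporter and immunoproteasome genes were at least 10 times less abundant per length than the heavy chains in every library. Tap1, which codes for a subunit of the peptide transporter, had 3.39 and 3.97 FPKM in PgrKO_Diff, 4.85 and 4.40 in PgrKO_Con, 3.33 in AdKO_Diff, 4.91 in AdKO_Con, 1.79 and 1.69 in F/F_Diff and 4.36 and 7.29 in F/F_Con. Its partner Tap2 had 5.03 and 7.27 FPKM in PgrKO_Diff, 5.20 and 6.52 in PgrKO_Con, 3.19 in AdKO_Diff, 4.18 in AdKO_Con, 7.23 and 5.20 in F/F_Diff and 7.55 and 10.3 in F/F_Con. Tap1 was lowest in the F/F_Diff libraries, whereas Tap2 was lowest in the AdKO libraries. Psmb8 had 3.25 and 3.36 FPKM in PgrKO_Diff, 6.71 and 7.81 in PgrKO_Con, 0.90 in AdKO_Diff, 3.06 in AdKO_Con, 1.72 and 1.24 in F/F_Diff and 5.75 and 8.73 in F/F_Con. Psmb9 had 1.65 and 1.35 FPKM in PgrKO_Diff, 1.94 and 2.56 in PgrKO_Con, 0.74 in AdKO_Diff, 1.76 in AdKO_Con, 1.14 and 0.84 in F/F_Diff and 1.91 and 3.17 in F/F_Con. Both immunoproteasome genes were lowest in AdKO_Diff, with F/F_Diff next. In all, 4 of the 9 members that could be tested had their 2 lowest values in F/F_Diff (H2-K1, H2-D1, B2m and Tap1), beside 13.5% of all genes tested.

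**Figure D1:**
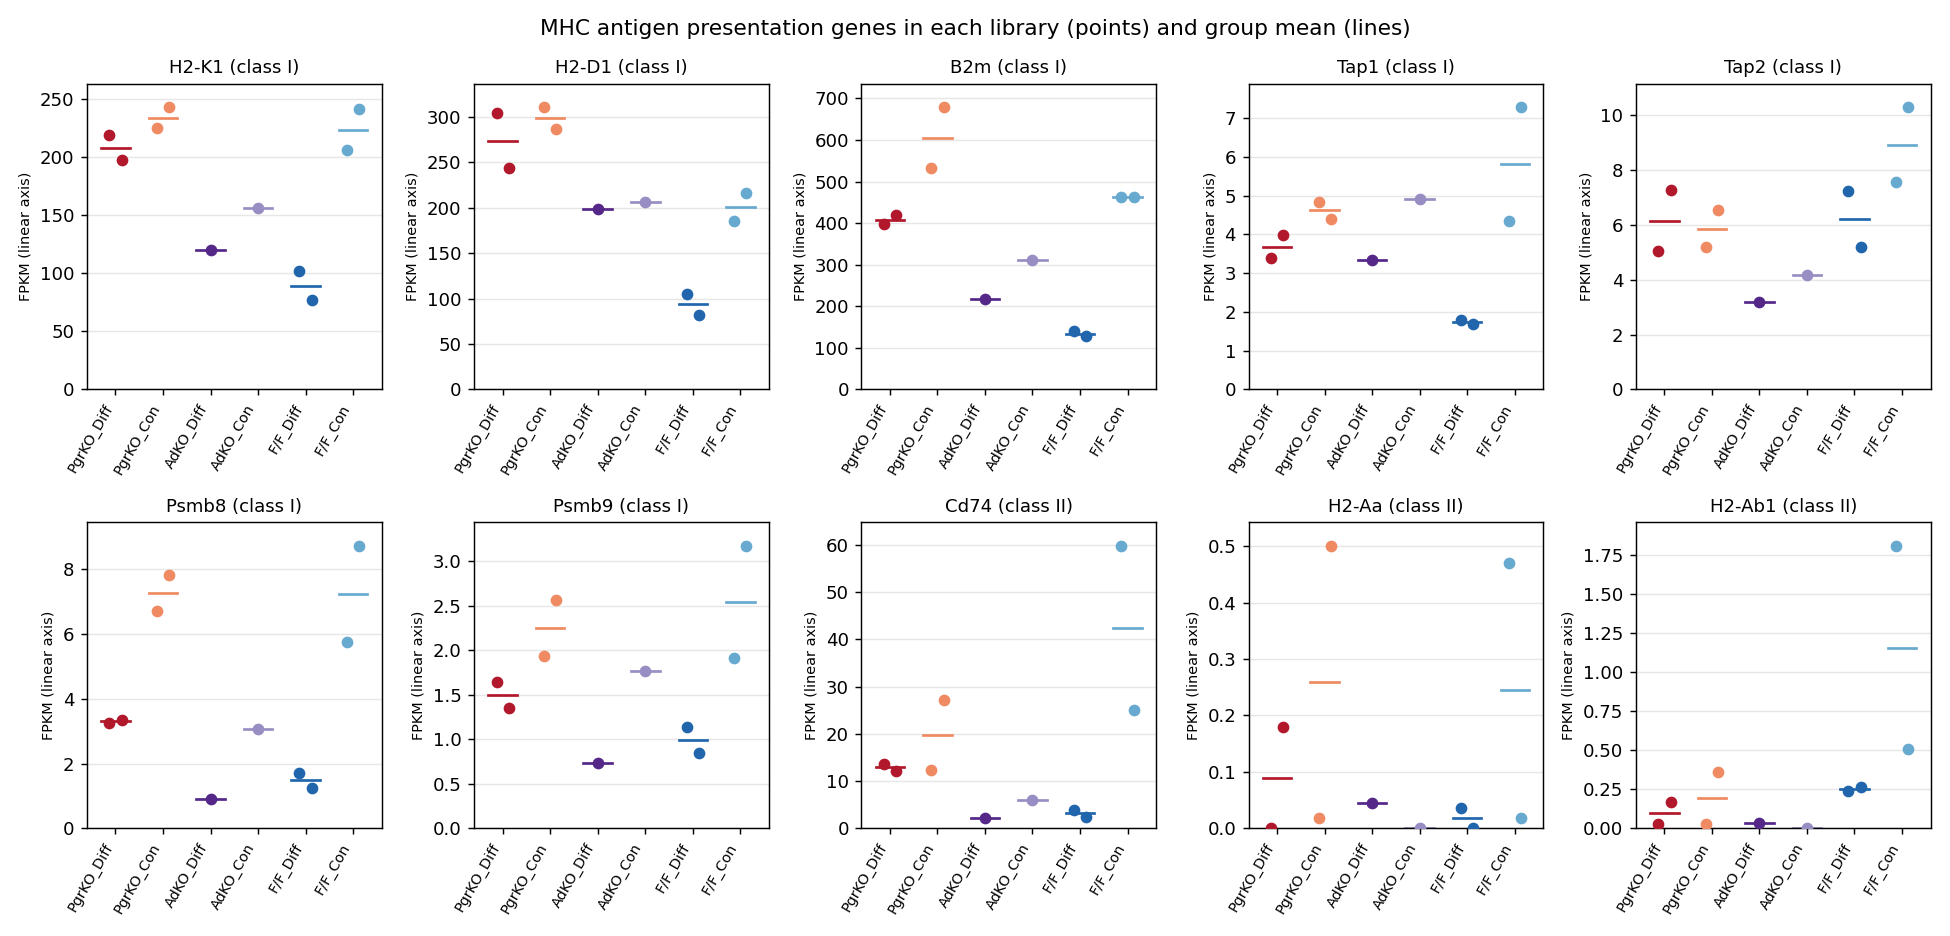
FPKM of the 10 genes (vertical axes, linear, 1 scale per gene) in the 6 groups, with a point for each library and a line at the group mean. H2-K1, H2-D1, B2m and Tap1 have their 2 lowest points in F/F_Diff, and the H2-Aa panel ends near 0.5 FPKM.

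Differentiation of F/F organoids went with lower class I transcripts. Of the 9 members tested, 6 were lower in F/F_Diff than in F/F_Con and none was higher, while 6.89% of all genes tested were lower. The tenth, H2-Aa, was under the filter on low values, and H2-Ab1 passed it through F/F_Con alone. The median log2 fold change over the 9 was −1.28, against −0.02 over all genes tested. B2m fell by 1.78 on the log2 scale (standard error, SE, 0.20; adjusted p = 0.0097), H2-K1 by 1.33 (SE 0.20, adjusted p = 0.0123) and H2-D1 by 1.10 (SE 0.21, adjusted p = 0.0195). Psmb8 had a log2 fold change of −1.72 (SE 0.22, adjusted p = 0.0104) and Tap1 of −1.28 (SE 0.23, adjusted p = 0.0166). The class II invariant chain Cd74 had the steepest difference, at −3.27 (SE 0.50, adjusted p = 0.0125). Psmb9 (−0.81, adjusted p = 0.0566), H2-Ab1 (−0.72, adjusted p = 0.172) and Tap2 (−0.46, adjusted p = 0.250) did not pass. All adjusted p-values came from limma on log2(FPKM + 1), a scale that understates the change of low genes. With F/F_Con replicate 2 or F/F_Diff replicate 2 left out, no gene of the whole table passed in this comparison, the members included. H2-D1 also lost its call without F/F_Con replicate 1 (highest adjusted p over these fits 0.114), and Tap1 without F/F_Diff replicate 1 (highest 0.0974).

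In PgrKO organoids none of the 9 members passed between PgrKO_Diff and PgrKO_Con, and neither did any other gene, so that 0% of the table was called. At an unadjusted p under 0.05, 1179 genes and 2 members would have been counted by limma, and voom on the recovered reads called 0 genes. The 2 members were Psmb8, with a log2 fold change of −0.94 (95% interval −1.47 to −0.41), and B2m, at −0.56 (95% interval −1.06 to −0.06), beside 3.66% of all genes that were lower at that unadjusted threshold. H2-K1 was at −0.17 (95% interval −0.65 to 0.31) and H2-D1 at −0.13 (95% interval −0.64 to 0.37). The difference between the responses, PgrKO minus F/F, was above 0 for all 9 members, from 0.44 for Psmb9 to 2.80 for Cd74, with a median of 0.97 against 0.07 over all genes. Of the 9, H2-Ab1 (0.60) passed the filter on low values only through F/F_Con, which by itself favours a value above 0. None of these interaction terms passed, against 4.41% of all genes. No gene of the table passed in 7 of the 8 fits without 1 library (all but that without PgrKO_Con replicate 1), nor with a pseudocount of 0.1, the replicate number as a block or voom. The lowest adjusted p-values were 0.0707 for B2m (difference 1.22), 0.0734 for H2-K1 (1.16) and 0.0833 for Cd74 (2.80), with 6 members at an unadjusted p under 0.05, beside 22.6% of all genes. The single alternative that called a member used no trend in the prior variance (B2m, adjusted p = 0.0458).

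Among differentiated organoids, class I genes were higher in PgrKO than in F/F. PgrKO_Diff exceeded F/F_Diff for 5 of the 9 members, while 11.7% of all genes were higher. B2m was higher by 1.60 on the log2 scale (SE 0.20, adjusted p = 0.0046), H2-D1 by 1.54 (SE 0.21, adjusted p = 0.0052) and H2-K1 by 1.23 (SE 0.20, adjusted p = 0.0084). Cd74 was higher by 1.76 (SE 0.50, adjusted p = 0.048) and Psmb8 by 0.80 (SE 0.22, adjusted p = 0.0406). Tap1 missed the threshold (0.77, adjusted p = 0.0505), and Psmb9, Tap2 and H2-Ab1 ranged from −0.20 to 0.33. B2m, H2-D1 and H2-K1 passed whichever single library was left out. Psmb8 passed in 2 of 8 such fits, and only where an F/F_Con library was removed, with a highest adjusted p of 0.183. Cd74 passed in 4 of 8, failing without either library of PgrKO_Diff or of F/F_Diff, with a highest adjusted p of 0.206. This comparison shares the F/F_Diff libraries with that of F/F_Diff against F/F_Con.

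Macrophage transcripts differed far more between the replicates of PgrKO than class I transcripts did. Lyz2, a lysozyme of myeloid cells, was at 78.2 FPKM in PgrKO_Diff replicate 1 and 874 in replicate 2, where H2-K1 was at 219 and 198 FPKM and H2-D1 at 304 and 243 FPKM. In PgrKO_Con, Lyz2 was at 127 and 720 FPKM, with H2-K1 at 225 and 243 FPKM and H2-D1 at 310 and 287 FPKM. The library of each pair with fewer macrophage transcripts had the higher H2-D1 level, whereas B2m was higher in the other one (397 and 420 FPKM in PgrKO_Diff, 532 and 679 FPKM in PgrKO_Con). Without replicate 2 of both PgrKO groups, the log2 fold change in PgrKO_Diff against F/F_Diff was 1.56 for B2m (adjusted p = 0.031), 1.70 for H2-D1 (adjusted p = 0.0344) and 1.30 for H2-K1 (adjusted p = 0.0545), so that 2 members passed. Whether the remaining marker transcripts take part in these differences was not tested.

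Before differentiation none of the 9 members passed between PgrKO_Con and F/F_Con, where 0.62% of all genes were called, and voom called no member. At an unadjusted p under 0.05 there were 2 members, H2-D1 and H2-Ab1, beside 21.9% of all genes. H2-Ab1 had passed the filter on low values through F/F_Con alone, which by itself favours a lower value in PgrKO_Con. The 98 genes called became 0 in 6 of the 8 fits without 1 library, that is without any F/F or PgrKO_Con library. The largest class I difference was 0.57 for H2-D1 (adjusted p = 0.190), and H2-K1 differed by less than the spread between libraries (225 and 243 FPKM in PgrKO_Con, 206 and 241 in F/F_Con). Over both states together, PgrKO exceeded F/F for 3 members, H2-D1 (1.06, adjusted p = 0.0068), B2m (0.99, adjusted p = 0.0076) and H2-K1 (0.65, adjusted p = 0.020), while 13.7% of all genes were higher. The H2-K1 call was lost in 4 of the 8 fits without 1 library (without F/F_Con replicate 1, F/F_Diff replicate 2 or either PgrKO_Con library), with adjusted p up to 0.065.

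**Figure D2:**
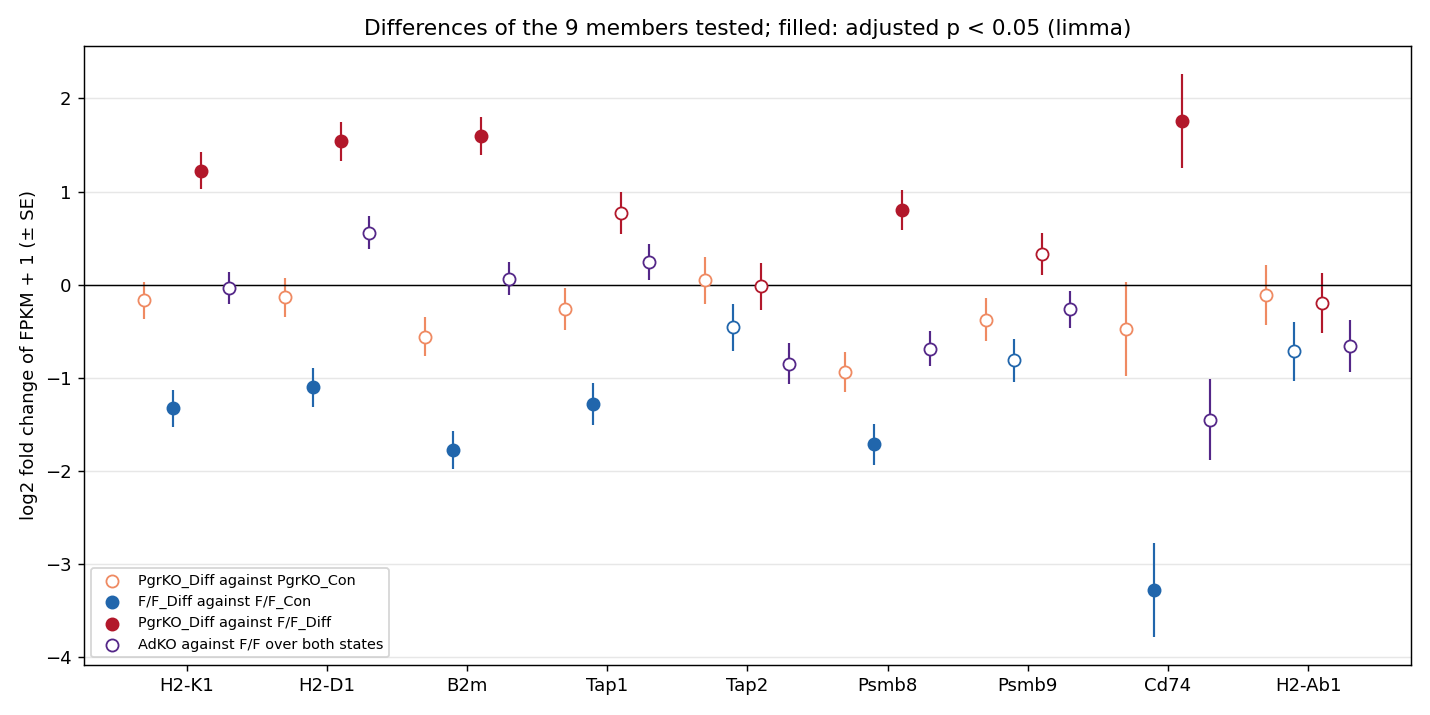
Log2 fold change of FPKM + 1 (vertical axis, bars ± 1 standard error) of the 9 members tested, for 4 comparisons side by side. Filled points passed an adjusted p under 0.05. Blue points (F/F_Diff against F/F_Con) reach −3.27 at Cd74, while red points (PgrKO_Diff against F/F_Diff) reach 1.60 at B2m and 1.76 at Cd74.

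AdKO organoids had a mixed pattern with no member called against F/F over both states, where 10.5% of all genes were called, and voom called no member. At an unadjusted p under 0.05 there were 4 members, beside 30.9% of all genes. The 1662 genes called became 9 to 24 when any 1 F/F library was left out and 6 with the replicate number as a block, so that AdKO calls rest on the full set of F/F libraries. The fit assumed that the lone AdKO libraries vary like those of the other groups. Tap2 (−0.85, 95% interval −1.37 to −0.32, adjusted p = 0.060), Psmb8 (−0.69, adjusted p = 0.0691) and Cd74 (−1.45, adjusted p = 0.0858) had negative values. H2-D1 (0.56, adjusted p = 0.0986) was positive, whereas H2-K1 was at −0.04 (95% interval −0.45 to 0.38). Between AdKO_Diff and AdKO_Con, with 1 library each, there was no replicate check. Psmb8 was at 0.90 FPKM in AdKO_Diff and 3.06 FPKM in AdKO_Con, while H2-D1 was at 198 FPKM in AdKO_Diff and 206 FPKM in AdKO_Con.

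Ratios within a library do not depend on how libraries were scaled. The ratio of H2-D1 to H2-K1, the 2 classical heavy chains, was 1.39 and 1.23 in PgrKO_Diff, 1.38 and 1.18 in PgrKO_Con, 1.65 in AdKO_Diff and 1.32 in AdKO_Con, against 1.03 and 1.08 in F/F_Diff and 0.902 and 0.897 in F/F_Con. All 6 libraries with Cre were thus above all 4 F/F libraries. This ratio was chosen after its values were seen, and it rests on reads assigned to paralogs. The ratio of Psmb8 to Psmb5, the immune over the constitutive β5 subunit, was 0.052 and 0.0891 in PgrKO_Diff, 0.102 and 0.153 in PgrKO_Con, 0.0129 in AdKO_Diff and 0.0425 in AdKO_Con, against 0.0207 and 0.020 in F/F_Diff and 0.0972 and 0.133 in F/F_Con. For this pair the Diff values were below the Con values in each genotype. The ratio of Psmb9 to Psmb6 was 0.0309 and 0.0386 in PgrKO_Diff and 0.0356 and 0.0473 in PgrKO_Con, and that of Psmb10 to Psmb7 was 0.631 and 0.940 in PgrKO_Diff and 0.629 and 0.916 in PgrKO_Con. Both of these ratios overlapped between the PgrKO states, whereas in F/F and AdKO they were lower in Diff. The constitutive gene exceeded the immune gene of each pair in every library. The ratio of Tap1 to Tap2, partners in the transporter, was lowest in F/F_Diff, at 0.247 and 0.325, and lay between 0.547 and 1.18 in the other 8 libraries.

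**Figure D3:**
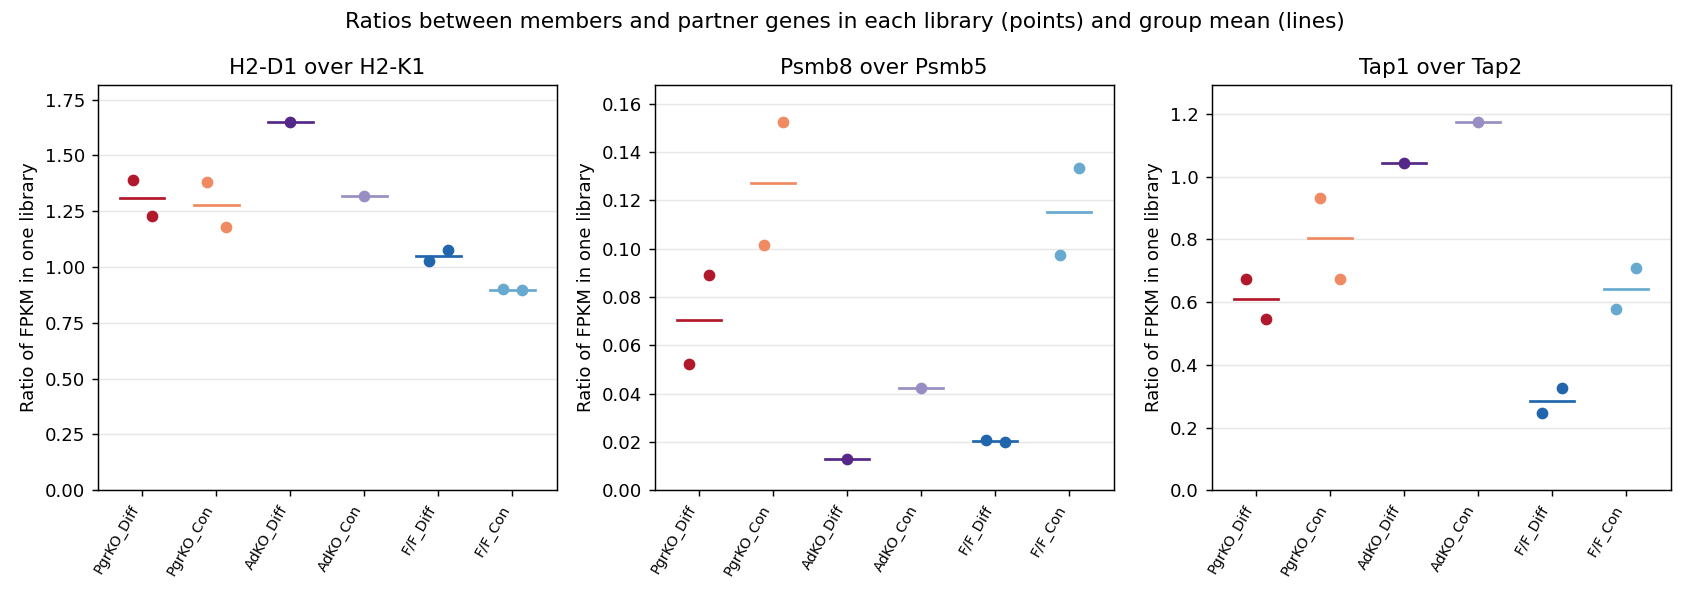
Ratios of FPKM within each library (points, vertical axes linear from 0) and their group means (lines) for H2-D1 over H2-K1, Psmb8 over Psmb5 and Tap1 over Tap2. The H2-D1 ratio is 1.18 or more in the 6 libraries with Cre and 1.08 or less in F/F.

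Of the 3 class II members, the invariant chain Cd74 was the most abundant in every library. Cd74 had 13.7 and 12.2 FPKM in PgrKO_Diff, 12.4 and 27.2 in PgrKO_Con, 2.16 in AdKO_Diff, 5.96 in AdKO_Con, 3.95 and 2.42 in F/F_Diff and 59.8 and 25.1 in F/F_Con. The 2 F/F_Con libraries differed among themselves by more than the PgrKO_Diff libraries did, and AdKO_Diff and F/F_Diff held the 3 lowest values. H2-Ab1 had 0.02 and 0.17 FPKM in PgrKO_Diff, 0.03 and 0.36 in PgrKO_Con, 0.03 in AdKO_Diff, 0 in AdKO_Con, 0.24 and 0.26 in F/F_Diff and 1.81 and 0.51 in F/F_Con. These values rest on 1 and 5 reads in PgrKO_Diff, 1 and 13 in PgrKO_Con, 1 in AdKO_Diff, 0 in AdKO_Con, 9 and 11 in F/F_Diff and 83 and 18 in F/F_Con. H2-Ab1 passed the filter on low values only through F/F_Con, the group in which it was highest. H2-Aa had at most 0.50 FPKM, with 0 and 8 reads in PgrKO_Diff, 1 and 27 in PgrKO_Con, 2 in AdKO_Diff, 0 in AdKO_Con, 2 and 0 in F/F_Diff and 32 and 1 in F/F_Con. A count of 0 allows up to 3 reads, which is 0.0653 FPKM for H2-Aa in AdKO_Con, a limit that covers counting error only. Per length, Cd74 exceeded H2-Ab1 560-fold and 73.4-fold in PgrKO_Diff, 451-fold and 76.1-fold in PgrKO_Con, 65.8-fold in AdKO_Diff, 16.5-fold and 9.18-fold in F/F_Diff and 33.1-fold and 49.5-fold in F/F_Con. The ratios of 560, 451 and 65.8 each rest on 1 read of H2-Ab1.

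Class II reads occurred in libraries with many and with few macrophage transcripts. F/F_Con replicate 1 had the highest Cd74, H2-Ab1 and Ciita (0.30 FPKM) levels, and 0.66 FPKM of the β chain gene H2-Eb1. In the same library the complement gene C1qa, a macrophage marker, was at 0 FPKM, the pan-leukocyte gene Ptprc at 0.01 FPKM, the B cell gene Cd79a at 0.15 FPKM and the T cell gene Cd3e at 0 FPKM. Other genes of these marker lists were higher there, with Cd14 at 161 FPKM, Cd68 at 16.2, Lyz2 at 3.14 and the B cell gene Cd79b at 2.54. In PgrKO_Diff replicate 2, by contrast, C1qa was at 108 FPKM, Ptprc at 2.93 FPKM and the macrophage receptor Csf1r at 31.9 FPKM, while H2-Aa was at 0.18 FPKM and H2-Ab1 at 0.17 FPKM. The highest H2-Aa level, 0.50 FPKM, was that of PgrKO_Con replicate 2, where C1qa was at 77.2 FPKM. In both PgrKO pairs replicate 2, which had more macrophage transcripts, also had more H2-Aa and H2-Ab1 reads than replicate 1. The part of macrophages in the class II reads was not tested. Ciita stayed at or under 0.08 FPKM in the other 9 libraries, and Ifng, the interferon-γ gene, was listed at 0 in all 10. H2-DMb1, a chain of the peptide editor H2-DM, was at 2.58 and 3.00 FPKM in PgrKO_Diff, 0.85 and 0.93 FPKM in the AdKO libraries and 3.13 and 4.44 FPKM in F/F_Diff, above H2-Aa and H2-Ab1 in each. Its partner H2-DMa was at 4.09 and 3.16 FPKM in F/F_Diff, above Cd74 in both libraries. H2-DMa was higher in F/F_Diff than in F/F_Con (log2 fold change 1.30, adjusted p = 0.0147), which is the reverse of Cd74.

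**Figure D4:**
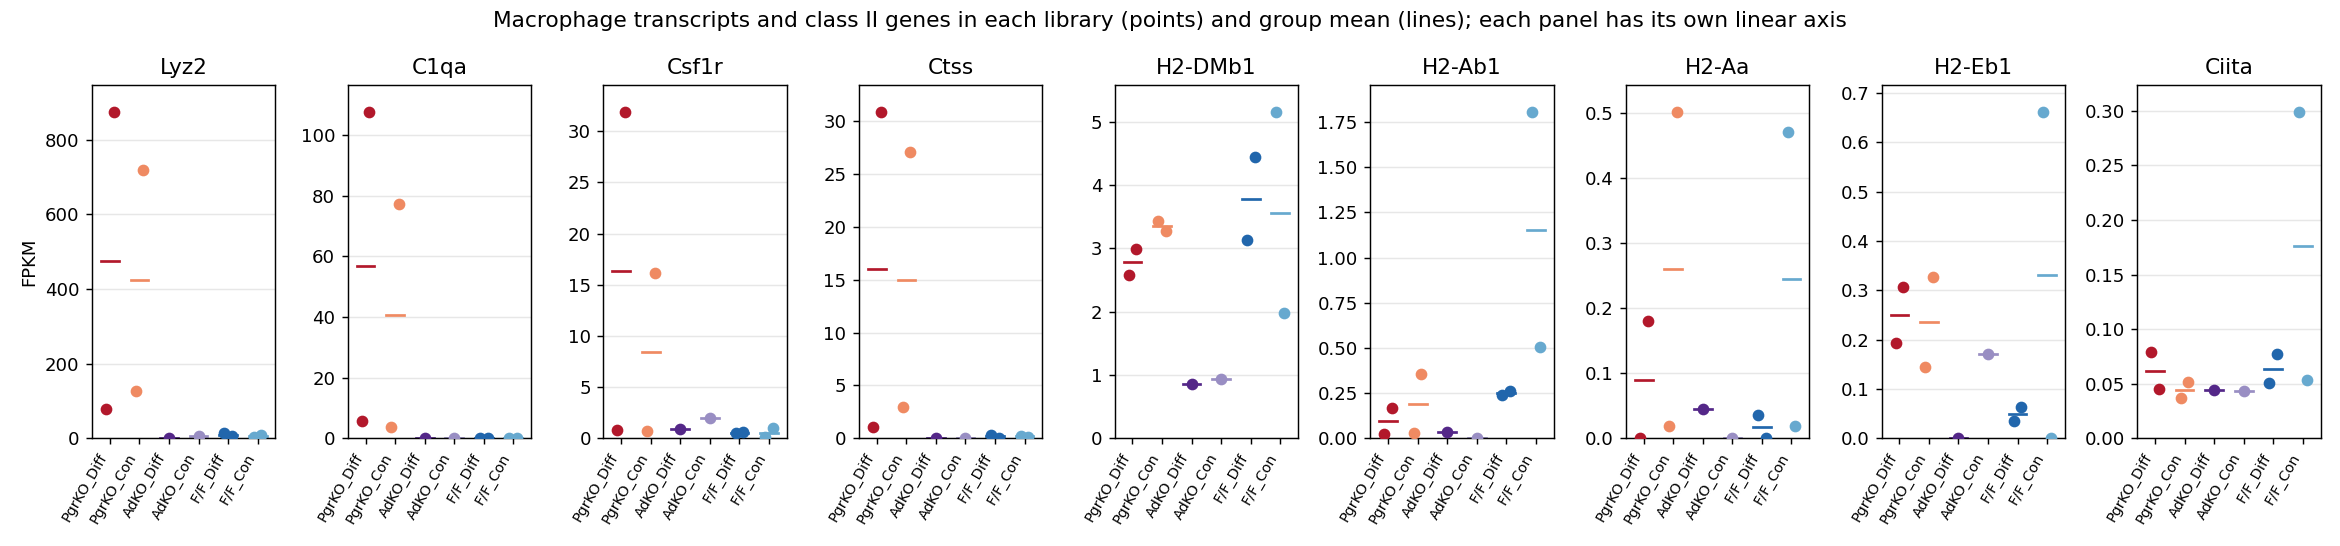
FPKM of 4 genes abundant in macrophages (Lyz2, C1qa, Csf1r and Ctss) and of 5 class II pathway genes, with a point for each library, a line at the group mean and a linear axis of its own for each gene. The macrophage genes peak in PgrKO replicate 2, where Lyz2 reaches 874 FPKM, while H2-Ab1 and Ciita peak in F/F_Con replicate 1.

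The mean of log2(FPKM + 1) over the 7 class I members was 4.70 and 4.71 in PgrKO_Diff, 4.98 and 5.12 in PgrKO_Con, 4.03 in AdKO_Diff, 4.53 in AdKO_Con, 3.94 and 3.68 in F/F_Diff and 4.84 and 5.21 in F/F_Con. The class I mean was below 4 in F/F_Diff only. The mean over the 3 class II members was 1.30 and 1.39 in PgrKO_Diff, 1.27 and 1.95 in PgrKO_Con, 0.59 in AdKO_Diff, 0.93 in AdKO_Con, 0.89 and 0.70 in F/F_Diff and 2.66 and 1.77 in F/F_Con. Class I minus class II lay between 2.19 (F/F_Con replicate 1) and 3.71 (PgrKO_Con replicate 1), so the classes differed more from each other in each library than either mean differed between libraries of a group. These are descriptions of the 10 libraries, in which a high class I gene and a rare class II gene weigh equally.

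**Figure D5:**
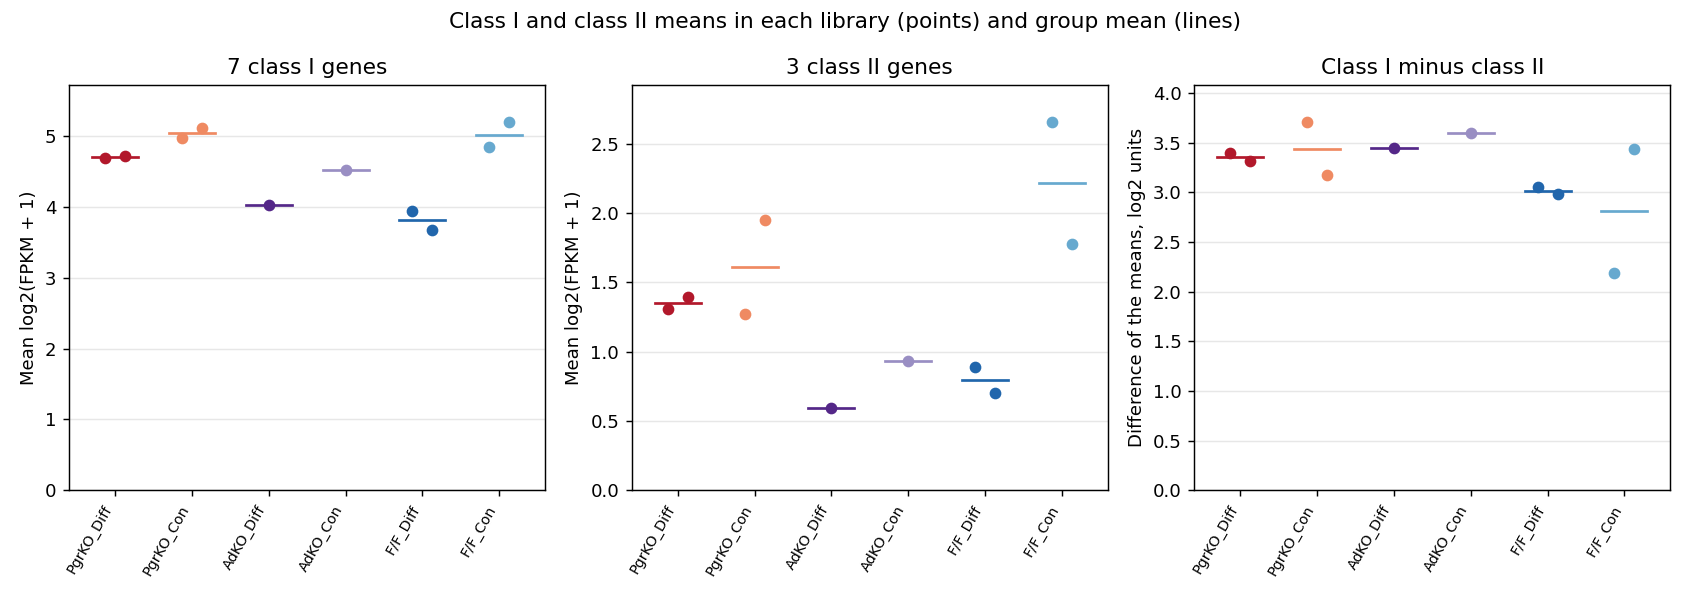
Mean log2(FPKM + 1) of the 7 class I genes (left) and the 3 class II genes (middle), and their difference (right, log2 units), with a point for each library and a line at the group mean. Class I means are 3.68 and 3.94 in F/F_Diff and over 4 elsewhere, and the class II mean is lowest in AdKO_Diff at 0.59.

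Among 13054 other genes with an official name, those whose log2 levels followed the class I mean most closely over the 10 libraries were Acpp (Pearson r = 0.965), Limd2 (0.955), Calu (0.952), the non-classical heavy chain H2-Q4 (0.952) and Khdrbs1 (0.951). The class II mean was followed most closely by Vangl2 (0.946), Dapp1 (0.945), Nfix (0.939), Arhgef10l (0.937) and Gpc2 (0.933). The points share 6 groups, and the genes were ranked from the same values, so these coefficients are descriptions without a test.

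The rest of the class I pathway was described through lists of its parts. Of 9 other heavy chain genes tested, H2-Q4, H2-Q6 and H2-Q7 were lower in F/F_Diff than in F/F_Con and none was higher (median −0.70). Of all genes tested, 6.89% were lower in that comparison. H2-Q4 and H2-T22 were higher in PgrKO_Diff than in F/F_Diff (median 0.61 against 0.07 over all genes), beside 11.7% of all genes. H2-Q4 was at 14.2 and 14.8 FPKM in PgrKO_Diff and 6.22 and 6.10 FPKM in F/F_Diff, a log2 fold change of 1.11 (adjusted p = 0.0067). H2-Q7 was at 0.63 and 0.75 FPKM in F/F_Diff and 6.88 and 12.2 FPKM in F/F_Con (−2.60, adjusted p = 0.0094). In AdKO, H2-T23, the mouse homologue of HLA-E, was at 1.93 FPKM in AdKO_Diff and 2.92 FPKM in AdKO_Con, against 7.98 to 14.7 FPKM in F/F (−1.88, adjusted p = 0.0235), and H2-T22 was lower too (−0.92, adjusted p = 0.0255). H2-T24 was at 0.04 FPKM in both AdKO libraries and at 0.60 to 2.73 FPKM in the other 8, a gene singled out after its values were seen. The calls of H2-T22 and H2-T23 failed when any F/F library was left out, with adjusted p up to 0.0682 and 0.066. Because the haplotype was not given, a difference in allele sequence and one in expression cannot be told apart for H2-T22, H2-T23 and H2-T24. In AdKO against F/F, 10.5% of all genes tested were called in either direction. Of 5 class I-like genes tested, Mr1, which presents vitamin B metabolites, and Cd1d1, which presents lipids, were lower in AdKO than in F/F (−1.12, adjusted p = 0.025, and −0.97, adjusted p = 0.034). Both calls failed when any F/F library was left out (highest adjusted p 0.0689 for Mr1 and 0.0894 for Cd1d1). Mr1 was at 7.47 FPKM in AdKO_Diff and 7.41 FPKM in AdKO_Con, against 35.0 and 33.0 FPKM in F/F_Diff and 9.32 and 8.03 FPKM in F/F_Con. It was higher in F/F_Diff than in F/F_Con (1.86, adjusted p = 0.0094) and lower in PgrKO_Diff than in F/F_Diff (−2.45, adjusted p = 0.0028), opposite to the members called.

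Of 6 other transport and loading genes, Tapbp and Erap1 were lower in F/F_Diff than in F/F_Con and none was higher. Of all genes tested, 6.89% were lower in that comparison, and 11.7% were higher in PgrKO_Diff than in F/F_Diff. Tapbp, which bridges the transporter and the empty heavy chain, was at 71.5 and 77.6 FPKM in PgrKO_Diff, against 25.1 and 27.4 FPKM in F/F_Diff (1.47, adjusted p = 0.0029), and Canx was higher as well (0.64, adjusted p = 0.0269). Of 3 other immunoproteasome and activator genes, Psmb10 (−1.12, adjusted p = 0.0123) and Psme1 (−1.01, adjusted p = 0.0273) were lower in F/F_Diff than in F/F_Con. Psmb10 was higher in PgrKO_Diff than in F/F_Diff (1.28, adjusted p = 0.0048) and in AdKO than in F/F (0.66, adjusted p = 0.0419). The AdKO call of Psmb10 was lost in all 8 fits without 1 library (adjusted p up to 0.104). Of 14 constitutive core genes, Psmb6 alone passed, higher in F/F_Diff than in F/F_Con (0.83, adjusted p = 0.039) and lower in PgrKO_Diff than in F/F_Diff (−1.28, adjusted p = 0.0081).

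Among regulators, Irf1, an activator of class I promoters, was at 7.93 and 7.80 FPKM in F/F_Diff, against 16.7 and 15.4 FPKM in F/F_Con (−0.94, adjusted p = 0.0164). It was at 10.6 and 10.5 FPKM in PgrKO_Diff, which did not pass against F/F_Diff (0.38, adjusted p = 0.135). Nlrc5 was at 0.25 to 1.98 FPKM over the 10 libraries and passed in no comparison. Of 20 interferon-stimulated genes tested, 7 were lower and 1 higher in F/F_Diff than in F/F_Con, and 10 were higher and 1 lower in PgrKO_Diff than in F/F_Diff. Of all genes, 6.89% were lower in the first comparison and 11.7% higher in the second. Gbp3 and Gbp2, interferon-inducible GTPases, had log2 fold changes of 1.57 and 1.66 in PgrKO_Diff against F/F_Diff (adjusted p = 0.0032 and 0.0055). Usp18, a brake on interferon signaling, went the other way in both comparisons (1.80 in F/F_Diff against F/F_Con, adjusted p = 0.0422, and −2.09 in PgrKO_Diff against F/F_Diff, adjusted p = 0.0213). In AdKO against F/F, 4 of these 20 genes were higher and none lower, beside 4.59% of all genes that were higher. Ifit3 had the lowest adjusted p of these (1.06, adjusted p = 0.029), and failed when any F/F library was left out (up to 0.0761). Of 10 MHC transcription factors tested, Irf1 alone passed between F/F_Diff and F/F_Con, and Nfya alone between PgrKO_Diff and F/F_Diff, where it was higher (0.54, adjusted p = 0.0316). Of 6 lysosomal processing genes of the class II pathway, none passed between F/F_Diff and F/F_Con. The thiol reductase Ifi30 was higher in PgrKO_Diff than in F/F_Diff and in AdKO than in F/F. Its AdKO call failed when any F/F library was left out. Of 3 costimulatory or checkpoint ligands tested, Icosl and Icam1 were lower in F/F_Diff than in F/F_Con. Icam1, an adhesion partner of T cells, had −1.85 there (adjusted p = 0.0274). It was higher in PgrKO_Diff than in F/F_Diff (1.96, adjusted p = 0.0172), where Icosl did not pass.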

How the data were processed

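The authors deposited FPKM for 10 libraries. The submitters' notes name HISAT2, edgeR and the build mm10, with no versions. The deposited values times exon length (GENCODE M21) gave whole reads for at least 99.99% of the values above 0 (within 0.05 read). Genes whose mean reached 1 FPKM in any of the 6 groups were tested on log2(FPKM + 1) with limma 3.58.1 (R 4.3.3, trend in the prior variance) in 1 fit of 10 libraries, 2-sided, with Benjamini-Hochberg adjustment over 15817 genes and a threshold of 0.05. The pipeline was tested on simulated data. All 10 genes were named with their values, together with list genes of the smallest p, fixed regulators and markers, and the 5 genes most like each class. A fixed regulator is not reported here. The genes and the 18 lists were chosen with earlier results of these data known. Groups followed the sample titles, as 3 genotype entries of F/F name other Cdc numbers. Chosen after seeing the data were a crossed replicate block, voom on recovered reads and a fit without replicate 2 of both PgrKO groups. Python 3.11.15, pandas 2.3.3, numpy 2.4.6 and matplotlib 3.10.9 were used.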

Additional observations from a re-analysis of the deposited data

Results flagged for a closer look

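Among genes of the presentation pathway, 2 differed in their response to differentiation between PgrKO and F/F by the interaction term. These were 1 of 12 class I chain genes tested and 1 of 5 class I-like genes. None passed among 8 transport and loading, 5 immunoproteasome and activator, 14 constitutive core, 5 class II, 6 lysosomal and 10 transcription factor genes. Of all genes tested, 4.41% passed, so the count is not read as a trait of the pathway. For H2-Q4, a non-classical heavy chain, the response in PgrKO minus that in F/F was 1.30 on the log2 scale (adjusted p = 0.0461 from limma). It was at 14.2 and 14.8 FPKM in PgrKO_Diff and 17.4 and 23.4 FPKM in PgrKO_Con, against 6.22 and 6.10 FPKM in F/F_Diff and 24.9 and 21.3 FPKM in F/F_Con. For Mr1, which presents vitamin B metabolites, the term was −2.03 (adjusted p = 0.0428 from limma). Mr1 was at 6.55 and 4.42 FPKM in PgrKO_Diff and 5.92 and 6.50 FPKM in PgrKO_Con, against 35.0 and 33.0 FPKM in F/F_Diff and 9.32 and 8.03 FPKM in F/F_Con. With 1 library left out, H2-Q4 passed in none of 8 fits (adjusted p 0.0664 to 0.148) and Mr1 in 1 of 8, that without PgrKO_Con replicate 1 (0.0481 to 0.136).

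For a further 3 genes the Diff and Con values did not overlap in either genotype, in opposite directions, with an interaction term that did not pass. The share of all genes with this pattern was not counted, so the 3 genes are not read as a trait of the pathway. In PgrKO the gap was small for 2 of them. Nfya was at 11.14 FPKM in PgrKO_Con replicate 2 and 11.15 in PgrKO_Diff replicate 1, and Psmb6 at 54.1 and 53.4 FPKM in the same libraries. The response in PgrKO minus that in F/F was 0.43 for Canx, a chaperone of heavy chains (adjusted p = 0.298 from limma). It was 0.50 for Nfya, a subunit of the Y box factor (adjusted p = 0.193), and −1.15 for the proteasome gene Psmb6 (adjusted p = 0.0786).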

How the results depend on the processing

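The members called in F/F_Diff against F/F_Con (6 as reported) ranged from 0 to 6 when 1 library was left out, and 1 passed at an adjusted p under 0.01. In PgrKO_Diff against F/F_Diff (5 as reported), the range was 3 to 6 when 1 library was left out. The count was 3 with no filter, 3 with the replicate number as a block, 3 at an adjusted p under 0.01, 3 with voom and 2 without replicate 2 of both PgrKO groups. For the difference of responses, 1 member was called with no trend in the prior variance. In PgrKO against F/F over both states (3 as reported) the range was 2 to 4. The member added there, without F/F_Con replicate 2, was H2-Ab1, which was lower in PgrKO (log2 fold change −0.72). In that fit it passed the filter on low values through F/F_Con replicate 1 alone. Same-numbered libraries of F/F and PgrKO did not deviate together (correlations −0.17 and −0.15), nor did F/F_Con and F/F_Diff (−0.05). PgrKO_Con and PgrKO_Diff did (0.53), so the numbers were not taken as a pairing. A block with crossed numbers gave 4 in PgrKO_Diff against F/F_Diff. The mean difference of class I and class II was 3.23 log2 units, 4.67 with a pseudocount of 0.1 and 2.50 with medians of the members. Quantile and median scaling moved the median of all genes in PgrKO_Diff against F/F_Diff to 0.13 and 0.16. Of 49 member differences that did not pass, 12 changed sign under an alternative, and none passed with the opposite sign. B2m and H2-D1 passed in PgrKO_Diff against F/F_Diff under all 13 other settings and all 8 fits without 1 library. Few reads limit H2-Aa and H2-Ab1.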
